A study of Mus musculus with 20 samples.

Results

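The transcripts of 10 mouse genes of the protease network around cathepsin D were followed through tumors and tumor cells that had lost Ctsd. The genes are 4 aspartic proteases, Ctse, Napsa, Bace1 and Bace2, 3 cystatins, Cst3, Cstb and Cst6, and 3 serpins, Serpinb6a, Serpina3n and Serpina3g. They were chosen by name for their family, with earlier results of these data known. All 10 were found among the 45706 gene identifiers of the count files. All animals and cells carried the PyMT oncogene, the polyoma middle T antigen under the mouse mammary tumor virus (MMTV) promoter, on a C57BL/6 N background. Tumors of 18-week-old mice came from 4 controls, labelled wild type and described by the study as mice with intact or floxed Ctsd and no cre, and from 4 MMTV-cre;Ctsd-/- mice, in which cre acts in the mammary epithelium and removes exon 2 of floxed Ctsd, so that stromal cells keep the gene. The cells were immortalized PyMT tumor cells of Ctsd+/+ and MMTV-cre;Ctsd-/- genotype, 1 line per genotype, grown in medium with 1% fetal calf serum (FCS) for 10 days (1% FCS) or for 12 weeks (1% FCS LT), in 3 replicates for each of these 4 groups. With 1 line per genotype, the genotype cannot be told apart from the line, and nothing in the labels says that the replicates of a line were separate isolates, so p-values in cells measure the spread between these cultures.

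Cathepsin D is a lysosomal aspartic protease, which cuts proteins with a pair of aspartates in its active site. Cathepsin E, encoded by Ctse, and napsin A, encoded by Napsa, are its close relatives in endosomes and lysosomes, while BACE1 and BACE2 are membrane-bound aspartic proteases, BACE1 being the beta-secretase of the amyloid precursor protein. Cystatins block the papain-like cysteine cathepsins: cystatin C, the product of Cst3, and cystatin E/M, the product of Cst6, are secreted, and cystatin B, the product of Cstb, stays in the cell. Serpins trap mainly serine proteases, and some of them also cysteine cathepsins. The product of Serpinb6a is intracellular, that of Serpina3n is a secreted acute-phase inhibitor, and that of Serpina3g is an intracellular inhibitor known from activated immune cells.

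Promoter sequence was looked at for the letters CACGTG, the core of the element through which the factor TFEB binds lysosomal genes. RefSeq windows on GRCm38.p6, from 250 bases before to 50 bases after a start site, were at hand for 4 of the 10 genes, namely Cst3, Serpinb6a with 2 start sites, Serpina3n and Serpina3g. None of these 5 windows held CACGTG, which reads the same on both strands, while 2349 of all 32851 windows did, or 7.15%. The Ctsd window held it 2 times, at -245 and at -98 from the start site. The 250 bases before the start site are printed for Ctsd, and for Cst3 and Serpina3g as the windows of a broadly expressed and of a restricted member, with CACGTG in capitals, each 5′ to 3′ on the minus strand for Ctsd (chr7:142387828-142388077) and Cst3 (chr2:148875513-148875762) and on the plus strand for Serpina3g (chr12:104235897-104236146). A match is a description of the letters and not a bound site.
Ctsd: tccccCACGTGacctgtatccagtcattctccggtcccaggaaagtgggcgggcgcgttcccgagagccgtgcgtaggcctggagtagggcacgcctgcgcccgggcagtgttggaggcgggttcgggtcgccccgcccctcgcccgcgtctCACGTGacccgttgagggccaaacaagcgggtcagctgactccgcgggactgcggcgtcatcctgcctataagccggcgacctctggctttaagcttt
Cst3: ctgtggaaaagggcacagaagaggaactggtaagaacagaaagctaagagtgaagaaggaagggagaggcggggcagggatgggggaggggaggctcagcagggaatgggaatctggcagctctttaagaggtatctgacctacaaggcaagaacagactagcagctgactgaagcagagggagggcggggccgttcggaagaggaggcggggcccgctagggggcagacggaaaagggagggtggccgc
Serpina3g: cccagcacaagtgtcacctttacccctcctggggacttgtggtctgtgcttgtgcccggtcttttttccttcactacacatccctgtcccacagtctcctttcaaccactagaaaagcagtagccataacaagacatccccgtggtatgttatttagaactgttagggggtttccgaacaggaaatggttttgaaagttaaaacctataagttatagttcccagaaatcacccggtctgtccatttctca

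Gene counts per tumor ranged from 49725437 to 64291587 and those per cell sample from 33622831 to 40239762. Counts were scaled with TMM, edgeR's trimmed mean of M-values, to scaled counts (CPM, reads of a gene per 1e6 scaled reads), separately in tumors and cells, and tested with edgeR's quasi-likelihood test with adjustment over all genes tested. Tumor libraries carried no strand information, with 52.8% to 53.7% of strand-assigned reads on the opposite strand, and were counted regardless of strand. Cell libraries were stranded, with 97.1% to 97.3% of reads running opposite to the gene, as its own transcripts do in such libraries, and these alone were used. Below, the strand of a read means the strand of the transcript it stands for. Control tumor 4 was the shallowest tumor library, with 15.6% of its reads set aside as lying on several genes, against a lowest share of 7.11% among the tumors. The LR number in the sample labels, which is not explained there, differed between the tumor genotypes and cannot be told apart from genotype. In cells it was shared by both genotypes at each culture time, but only in part by the culture times. Replicate 1 of both genotypes in 1% FCS had a number not found in 1% FCS LT. Replicate 3 of both genotypes in 1% FCS LT had a number not found in 1% FCS. The other cultures of both times had the same number. Long-term changes within a genotype can therefore not be fully told apart from the LR number.

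Ctsd, the targeted gene, followed the labels in every sample. It lay at 1860.2, 2617, 1781 and 2532 CPM in the 4 control tumors and at 797, 360.2, 1295 and 1233 CPM in the 4 MMTV-cre;Ctsd-/- tumors, 2 sets that did not overlap. The log2 fold change (log2 FC) was -1.25 ± 0.38 (SE), with an edgeR p of 0.00776 and an adjusted p of 0.463. In 1% FCS it was at 4199, 2858 and 1267 CPM in Ctsd+/+ cells and between 131 and 192 CPM in Ctsd-/- cells, a log2 FC of -4.16 ± 0.37 (edgeR, adjusted p = 4.34e-06). The counts cover the whole gene, so reads outside exon 2 still count in the Ctsd-/- samples.

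Set beside each other per kilobase (kb) of exon, the 10 genes spanned more than 2 orders of magnitude in level. In control tumors Cstb, at 638 ± 367 CPM per kb (SD, n = 4), and Cst3, at 504 ± 154 CPM per kb, stood within reach of Ctsd itself at 935 ± 186 CPM per kb. Serpinb6a followed at 39.6 ± 27.9 and Serpina3n at 19.1 ± 13.2 CPM per kb. Bace1 had 6.89 ± 2.35 CPM per kb, and Serpina3g, Cst6, Napsa, Bace2 and Ctse lay between 1.63 and 2.34 CPM per kb, with spreads that overlapped. The low end thus held 3 aspartic proteases, 1 cystatin and 1 serpin. In Ctsd+/+ cells in 1% FCS the order began again with Cstb, 143 ± 28.4 CPM per kb, and Cst3, 65.8 ± 26.6 CPM per kb (SD, n = 3). Serpinb6a had 39.6 ± 3.61 and Bace1 28.6 ± 6.24 CPM per kb there.

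Among the aspartic proteases, Bace1 separated the cell lines most. Bace1 (ENSMUSG00000032086, GRCm38 chr9:45838580-45864399, plus strand) had 193, 215 and 138 CPM in Ctsd+/+ cells in 1% FCS, and only 4, 4 and 6 reads, or 0.0973, 0.110 and 0.177 CPM, in Ctsd-/- cells. After long-term culture Bace1 stood at 575, 584 and 535 CPM in Ctsd+/+ cells, and at 14, 14 and 16 reads in Ctsd-/- cells. Every Ctsd+/+ culture thus carried 5263 or more Bace1 reads, and every Ctsd-/- culture at most 16. The log2 FC between genotypes was -10.46 ± 0.25 in 1% FCS (edgeR, adjusted p = 6.46e-10) and -10.60 ± 0.23 in 1% FCS LT (adjusted p = 2.39e-10), fitted folds of 1406 and 1550.4 whose size rests on these few reads.

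Long-term culture raised Bace1 in Ctsd+/+ cells, with no overlap between the groups, by a log2 FC of 1.64 ± 0.15 (edgeR, adjusted p = 5.08e-06). In Ctsd-/- cells the log2 FC was 1.50 ± 0.35 with an adjusted p of 0.0499, a call that was lost in 10 of the 12 fits that left out a single culture and in 5 of the 7 other alternatives that tested Bace1, with adjusted p from 0.0191 to 0.575 over all of them. The fit with the replicate block, in which cultures of the same number are paired, gave an adjusted p of 0.0504. The corrected comparison, the study's name for the genotype difference in 1% FCS LT minus that in 1% FCS, left Bace1 at -0.14 ± 0.49 (edgeR, adjusted p = 0.862).

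The strand decided how much Bace1 was seen in Ctsd-/- cells. Over its exons up to 17.49% of the bases, summed over the genes, are shared with 2 genes on the other strand, Rnf214 and Gm16536. Reads of that other strand numbered 830 to 1212 in Ctsd-/- cells in 1% FCS and 1133 to 1376 in 1% FCS LT, and 697 to 778 and 448 to 589 in the respective Ctsd+/+ cells. In Ctsd-/- cells they made up 98.8% to 99.7% of the stranded reads over Bace1. Both genes were lowest in long-term Ctsd+/+ cells, as were these reads. Gm16536 had means of 5.36 CPM in Ctsd+/+ and 7.03 CPM in Ctsd-/- cells in 1% FCS, and of 3.12 and 7.19 CPM in 1% FCS LT. Rnf214 was highest in Ctsd-/- cells in 1% FCS, with 37.0 ± 1.78 CPM in Ctsd+/+ and 50.8 ± 1.44 CPM in Ctsd-/- cells in 1% FCS, and 26.6 ± 1.59 and 48.7 ± 2.00 CPM in 1% FCS LT (SD, n = 3). The part of either gene in these reads was not tested. Reads that lie on exons of Bace1 and of a gene on the other strand are set aside when strand is ignored. In Ctsd-/- cells 586 to 870 reads then remained in 1% FCS and 820 to 1001 in 1% FCS LT. Most of the reads over Bace1 there thus lay outside the exon bases shared with these genes. Counted regardless of strand, the Ctsd-/- cells showed 17.8 to 24.9 CPM of Bace1, and the log2 FC shrank to -3.07 ± 0.16 in 1% FCS (edgeR, adjusted p = 1.01e-07) and -4.39 ± 0.17 in 1% FCS LT (adjusted p = 1.44e-08). The corrected comparison then passed the threshold, at -1.32 ± 0.21 (edgeR, adjusted p = 0.000614, range over the alternatives 0.000614 to 1.0).

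**Figure D1:**
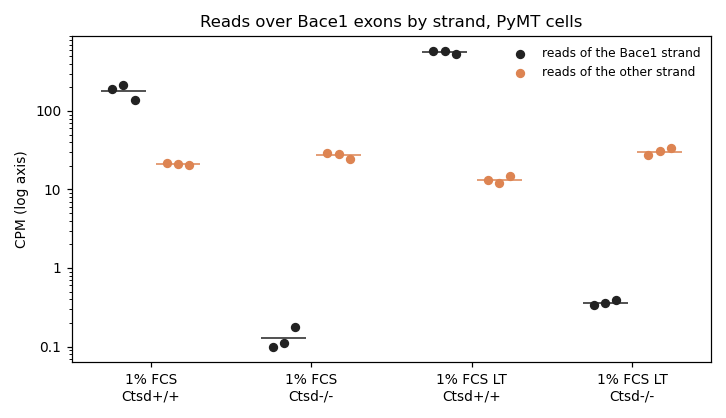
CPM of reads over the Bace1 exons on the strand of Bace1 and on the other strand, on a log axis, in the 4 cell groups. Points are cultures (n = 3 a group) and lines are means. On its own strand Bace1 lies at 138 CPM or more in each Ctsd+/+ culture and under 0.4 CPM in each Ctsd-/- culture, while the other strand stays between 11.9 and 33.3 CPM throughout.

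No such difference appeared between tumors. Bace1 had 55.3, 49.3, 48.5 and 21.8 CPM in control tumors and 46.9, 51.1, 44.7 and 43.0 CPM in MMTV-cre;Ctsd-/- tumors, overlapping sets with a log2 FC of 0.09 ± 0.27 (edgeR, adjusted p = 0.925). Control tumor 4 alone was low, and without it the log2 FC was -0.13. Since these libraries are not stranded, reads of Bace1 and reads of its other strand cannot be told apart in tumors. In bulk samples, moreover, fewer cells of a type and less RNA per cell cannot be told apart.

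Bace2 (ENSMUSG00000040605, GRCm38 chr16:97356742-97442936, plus strand), the paralog of Bace1, moved differently. In 1% FCS it had 5.28, 4.27 and 2.51 CPM in Ctsd+/+ and 6.35, 3.72 and 3.87 CPM in Ctsd-/- cells, overlapping groups with a log2 FC of 0.21 ± 0.32 (edgeR, adjusted p = 0.608). Long-term culture took it to 0.432, 0.693 and 0.811 CPM in Ctsd+/+ cells, below every other culture, and left it at 3.23, 2.94 and 3.75 CPM in Ctsd-/- cells. It fell by 2.63 ± 0.35 on the log2 scale in Ctsd+/+ cells (edgeR, adjusted p = 0.000104), so that in 1% FCS LT it was higher in Ctsd-/- cells by a log2 FC of 2.35 ± 0.35 (adjusted p = 0.000282). The corrected comparison was 2.14 ± 0.47 (edgeR, adjusted p = 0.00518). The long-term Ctsd+/+ cultures thus held the highest Bace1 and the lowest Bace2 levels of the cell samples. Tumors ranged from 7.20 CPM, again control tumor 4, to 19.2 CPM, and the genotypes overlapped (log2 FC 0.09 ± 0.29, edgeR adjusted p = 0.927).

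Ctse and Napsa, the closest relatives of Ctsd, were tumor transcripts. Ctse (ENSMUSG00000004552, GRCm38 chr1:131638306-131675505, plus strand) had 9.08, 2.76, 2.57 and 6.27 CPM in control and 2.02, 2.20, 5.48 and 7.04 CPM in MMTV-cre;Ctsd-/- tumors. Both genotypes held high and low tumors, and the log2 FC was -0.30 ± 0.53 (edgeR, adjusted p = 0.856). Napsa (ENSMUSG00000002204, GRCm38 chr7:44572380-44586862, plus strand) ranged from 3.20 to 6.14 CPM in control and from 3.41 to 6.68 CPM in MMTV-cre;Ctsd-/- tumors, a log2 FC of -0.13 ± 0.33 (adjusted p = 0.901). In the 12 cell samples neither passed the filter on low counts. Napsa had at most 2 reads in any culture, which is under the floor of 3 reads and not detectable at this depth.

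Ctse had no read in the 3 Ctsd+/+ cultures in 1% FCS and 4, 8 and 2 reads in Ctsd-/- cells. The long-term cultures held 0, 2 and 4 reads in Ctsd+/+ and 9, 10 and 26 reads in Ctsd-/- cells. The reads lay higher in Ctsd-/- cells without overlap at both times, and against the floor of 3 reads per library the mean in 1% FCS was at least 1.37-fold higher. With the filter on low counts lifted, edgeR gave adjusted p of 0.011 in 1% FCS and 0.016 in 1% FCS LT. These values rest on few reads, and Ctsd-/- replicate 3 in 1% FCS, at 2 reads, lay under the floor. The share of all genes called in that fit is not given here. Even the highest culture, at 0.629 CPM, stayed below the lowest tumor at 2.02 CPM, although tumors and cells were scaled apart.

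**Figure D2:**
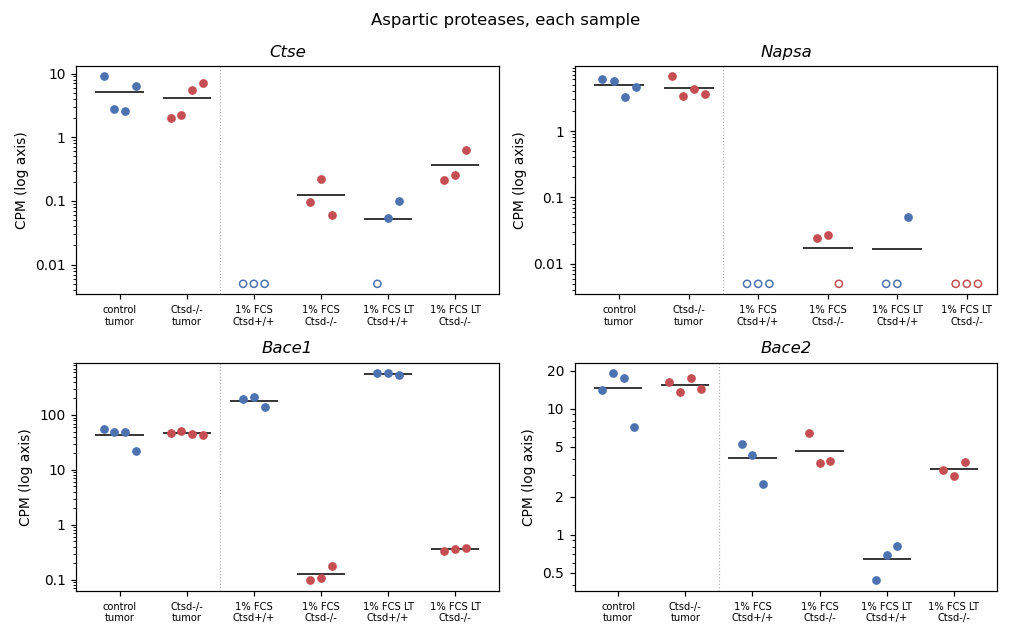
CPM of Ctse, Napsa, Bace1 and Bace2 in each sample, on log axes, in the 2 tumor groups (n = 4) and the 4 cell groups (n = 3). Points are samples, open circles samples without a read (drawn at 0.005 CPM), lines group means, and the dotted line divides tumors from cells, which were scaled apart. Bace1 is near 0 only in Ctsd-/- cells, Bace2 is lowest in 1% FCS LT Ctsd+/+ cells, and Ctse and Napsa stay under 1 CPM in all cells.

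Of the cystatins, Cst6 differed most with genotype and culture. Cst6 (ENSMUSG00000024846, GRCm38 chr19:5344705-5349574, minus strand) had 7.26, 5.74 and 10.8 CPM in Ctsd+/+ and 58.6, 68.4 and 67.1 CPM in Ctsd-/- cells in 1% FCS. The long-term cultures stood at 33.2, 33.0 and 40.7 CPM for Ctsd+/+ and at 51.5, 47.6 and 60.1 CPM for Ctsd-/-. The lowest Ctsd-/- culture of either time was above the highest Ctsd+/+ culture of that time. In 1% FCS the log2 FC was 3.02 ± 0.21, or 8.13-fold (edgeR, adjusted p = 6.83e-07). It was 0.57 ± 0.19 in 1% FCS LT (edgeR, adjusted p = 0.0328), a call that was lost without Ctsd+/+ replicate 1 (adjusted p = 0.0989) or 2 (0.105), without Ctsd-/- replicate 1 (0.0586) or 3 (0.11), and among the 8 cultures with the shared LR number (0.0859), in a range over the alternatives from 0.00688 to 0.11.

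The narrowing came from the Ctsd+/+ side. Long-term culture raised Cst6 in Ctsd+/+ cells by a log2 FC of 2.16 ± 0.20 (edgeR, adjusted p = 7.10e-06), and in Ctsd-/- cells the log2 FC was -0.29 ± 0.19 (adjusted p = 0.474). The corrected comparison was -2.45 ± 0.28 (adjusted p = 6.51e-05). Ordered by mean, the groups ran from 1% FCS Ctsd+/+ at 7.94 ± 2.60 CPM over 1% FCS LT Ctsd+/+ at 35.7 ± 4.41 and 1% FCS LT Ctsd-/- at 53.0 ± 6.40 to 1% FCS Ctsd-/- at 64.7 ± 5.35 CPM (SD, n = 3), and only the last pair of neighbours did not pass the test.

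Cstb (ENSMUSG00000005054, GRCm38 chr10:78425669-78427622, plus strand) showed shifts of less than 1.5-fold that turned with culture time. In 1% FCS it had 66.9, 98.4 and 94.2 CPM in Ctsd+/+ and 114, 129 and 114 CPM in Ctsd-/- cells, and in 1% FCS LT 108, 124 and 123 CPM in Ctsd+/+ and 83.0, 90.6 and 116 CPM in Ctsd-/- cells. The groups did not overlap in 1% FCS and overlapped in 1% FCS LT. The log2 FC between genotypes was 0.46 ± 0.16 in 1% FCS (edgeR, adjusted p = 0.0302) and -0.29 ± 0.16 in 1% FCS LT (adjusted p = 0.169). The long-term change was 0.45 ± 0.16 in Ctsd+/+ cells (adjusted p = 0.0353), and the corrected comparison was -0.75 ± 0.22 (adjusted p = 0.0248). Replicate 1 of the Ctsd+/+ cells in 1% FCS was the lowest culture, and without it both the genotype difference in 1% FCS (log2 FC 0.31, adjusted p = 0.102) and the long-term change (log2 FC 0.29, adjusted p = 0.121) missed the threshold. Over the alternatives the adjusted p of the former ran from 0.00961 to 0.102, being above 0.05 also without Ctsd-/- replicate 2 (0.099) or 3 (0.0529), and that of the latter from 0.012 to 0.121, being above 0.05 also without long-term replicate 2 (0.0971) or 3 (0.085) and among the 8 cultures with the shared LR number (log2 FC 0.27, adjusted p = 0.0988). Among those 8 cultures the 1% FCS LT difference passed (log2 FC -0.42, adjusted p = 0.0245). The corrected comparison was lost without any 1 of 5 cultures, 1% FCS Ctsd-/- replicate 2, long-term Ctsd+/+ replicates 2 and 3 and long-term Ctsd-/- replicates 1 and 2, with adjusted p up to 0.0632.

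Cst3 (ENSMUSG00000027447, GRCm38 chr2:148871722-148875692, minus strand) passed the test in none of the cell comparisons. It ranged from 50.1 to 117 CPM in Ctsd+/+ and from 58.0 to 73.7 CPM in Ctsd-/- cells in 1% FCS, and from 73.9 to 84.1 and from 64.8 to 112 CPM in 1% FCS LT. The log2 FC between genotypes was -0.35 ± 0.26 in 1% FCS (edgeR, adjusted p = 0.296) and 0.17 ± 0.26 in 1% FCS LT (adjusted p = 0.637). Without replicate 3 of the Ctsd+/+ cells in 1% FCS, the lowest culture of its group, the former was -0.63 with an adjusted p of 0.0329, against up to 0.966 over the other alternatives.

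In tumors all 3 cystatins had lower means in the MMTV-cre;Ctsd-/- group, and none was called. Cst3 had 423, 856, 737 and 535 CPM in control and 487, 277, 424 and 445 CPM in MMTV-cre;Ctsd-/- tumors, a log2 FC of -0.64 ± 0.28 with an edgeR p of 0.0431 and an adjusted p of 0.555. Cstb had 211, 220.1, 428 and 680.3 CPM in control and 305, 217, 189 and 183 CPM in MMTV-cre;Ctsd-/- tumors, a log2 FC of -0.78 ± 0.38 (edgeR, adjusted p = 0.573). Cst6 had 4.40, 4.86, 10.5 and 18.0 CPM in control and 10.2, 6.58, 3.19 and 3.87 CPM in MMTV-cre;Ctsd-/- tumors, a log2 FC of -0.66 ± 0.52 (adjusted p = 0.688). In each of the 3 genes the genotypes overlapped. The lower means of Cstb and Cst6 leaned on control tumor 4, and without it their log2 FC were -0.36 and -0.15, whereas that of Cst3 was -0.72.

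Serpinb6a (ENSMUSG00000060147, GRCm38 chr13:33917918-34002794, minus strand) was the serpin with an even, high level in cells. It had 195, 214 and 234 CPM in Ctsd+/+ and 281, 352 and 355 CPM in Ctsd-/- cells in 1% FCS, without overlap, a log2 FC of 0.62 ± 0.12 (edgeR, adjusted p = 0.000936). After 12 weeks Serpinb6a stood at 299, 273 and 280.4 CPM in Ctsd+/+ and at 279.7, 319 and 281 CPM in Ctsd-/- cells, and the log2 FC was 0.05 ± 0.11 (adjusted p = 0.785). Long-term culture raised it in Ctsd+/+ cells by a log2 FC of 0.41 ± 0.12 (edgeR, adjusted p = 0.0123), and the corrected comparison was -0.57 ± 0.16 (adjusted p = 0.0197), with an adjusted p of 0.0526 or 0.0576 without 1% FCS Ctsd-/- replicate 2 or 3 and of 0.0515 without long-term Ctsd-/- replicate 1. As for Cst6, Ctsd+/+ cells rose during long-term culture while the change in Ctsd-/- cells missed the threshold (log2 FC -0.17, adjusted p = 0.49).

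In tumors Serpinb6a had 87.0, 154, 184 and 432 CPM in control and 193, 99.1, 119 and 115 CPM in MMTV-cre;Ctsd-/- tumors, overlapping sets with a log2 FC of -0.71 ± 0.44 (edgeR, adjusted p = 0.63). Without control tumor 4 the log2 FC was -0.11. Of its exon bases, up to 29.34%, summed over the genes, lie over genes of the other strand, among them Nqo2 and Ripk1. In the unstranded tumor libraries reads on these shared bases were set aside. Whether the remaining reads came from Serpinb6a or from its other strand cannot be told apart there. In the stranded cell libraries 1.81% to 3.62% of the stranded reads over its exons came from the other strand, and counting regardless of strand left the 1% FCS log2 FC at 0.63 ± 0.12.

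Serpina3n (ENSMUSG00000021091, GRCm38 chr12:104406729-104414329, plus strand) was the member with the highest mean in MMTV-cre;Ctsd-/- relative to control tumors. It had 21.3, 78.7, 20.8 and 37.1 CPM in control and 29.6, 35.0, 130.3 and 125 CPM in MMTV-cre;Ctsd-/- tumors. MMTV-cre;Ctsd-/- tumors 3 and 4 were the highest of all 8, and the other 2 lay within the control range. The log2 FC was 1.02 ± 0.58 (edgeR, adjusted p = 0.605), and it was 1.60 without control tumor 2 and 0.68 without MMTV-cre;Ctsd-/- tumor 3. The same 2 tumors had the highest summed level of 6 adipocyte markers, at 10270.0 and 22630.0 CPM. The other 6 tumors had 519 to 7965 CPM. Those 2 tumors were also highest in the sum of 5 endothelium markers, at 234 and 224 CPM against 45.0 to 94.4 CPM. The part of either marker list in the Serpina3n level was not tested. In cells Serpina3n was close to absent, with 34, 1 and 0 reads in Ctsd+/+ cells in 1% FCS and at most 6 reads in any other culture. It did not pass the filter on low counts and was not tested in the main fit. With the filter lifted, edgeR gave an adjusted p of 0.0206 for long-term culture of Ctsd+/+ cells, a value that rests on the culture with 34 reads.

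Serpina3g (ENSMUSG00000041481, GRCm38 chr12:104236245-104241939, plus strand) was a transcript of few reads that was found in Ctsd+/+ cells in 1% FCS. They had 14, 30 and 25 reads, or 0.420, 0.916 and 0.654 CPM, and Ctsd-/- cells had none. After long-term culture there were 0, 0 and 1 reads in Ctsd+/+ and 1, 5 and 0 reads in Ctsd-/- cells. Against the floor of 3 reads per library the 1% FCS Ctsd+/+ mean was at least 7.48-fold higher than in Ctsd-/- cells (edgeR, adjusted p = 0.000725) and at least 8.18-fold higher than in 1% FCS LT Ctsd+/+ cells (adjusted p = 0.00119). The corrected comparison passed the threshold as well (adjusted p = 0.00574), without a determined size, and Serpina3g entered the test only through the group in which it is high. Without the 1% FCS LT Ctsd-/- replicate 2, which held the 5 reads, its adjusted p was 0.0591. Of its exonic stretches of 100 bases, 3.49% occur also in other genes, most in Serpina3i, so part of its reads may not be counted. In tumors it ranged from 2.46 to 7.02 CPM in control and from 2.82 to 8.40 CPM in MMTV-cre;Ctsd-/- samples, a log2 FC of 0.05 ± 0.42 (adjusted p = 0.979).

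**Figure D3:**
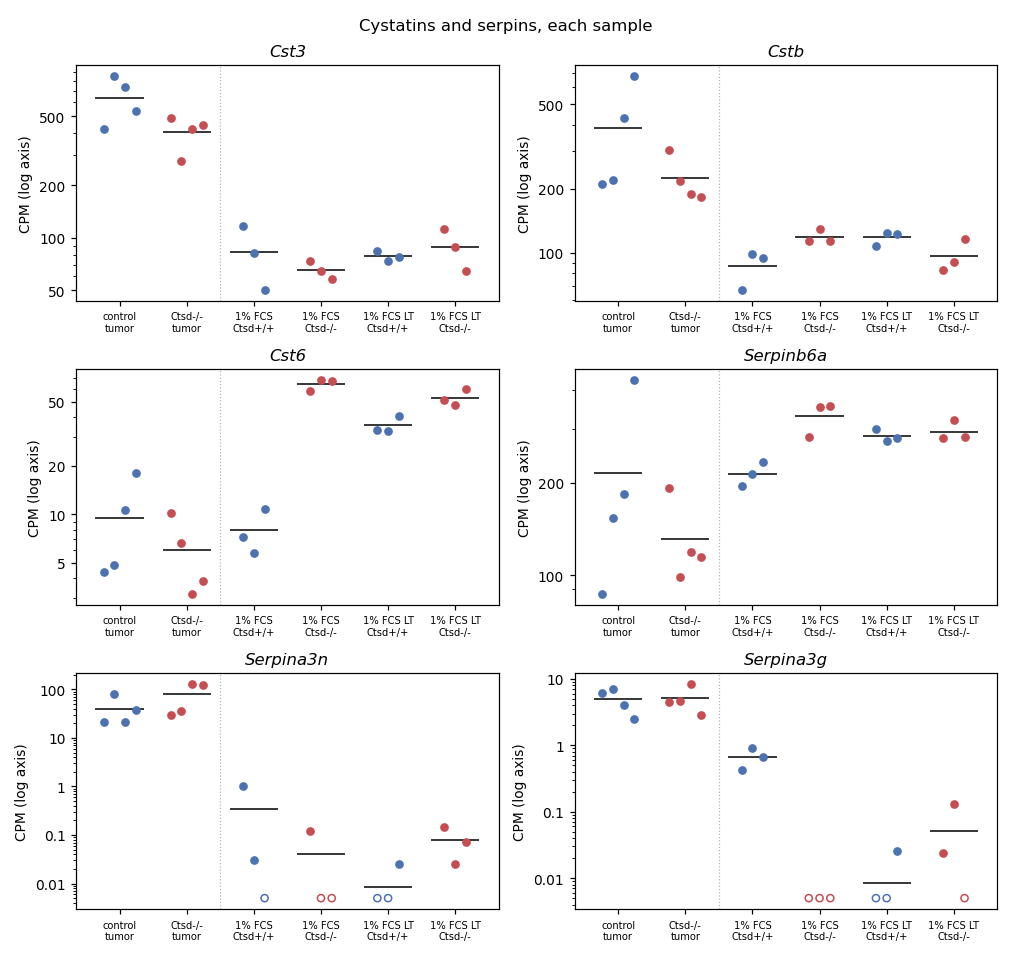
CPM of the 3 cystatins and 3 serpins in each sample, on log axes, drawn as for the aspartic proteases, with samples as points, open circles at 0.005 CPM for samples without a read and lines for group means. Cst6, Cstb and Serpinb6a are lower in 1% FCS Ctsd+/+ than in the 1% FCS Ctsd-/- cells, and Serpina3g has reads above the floor of 3 in every 1% FCS Ctsd+/+ culture.

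Counted over the members, tumors gave no call and cells several. In tumors 0 of 10 passed an adjusted p of 0.05 with edgeR, beside 0.00537% of the 18617 genes tested, and DESeq2 and limma-voom also called 0. At an unadjusted p of 0.05 edgeR gave 1 of 10, Cst3, beside 8.94% of all genes, and at the study's unadjusted threshold of 0.1 it gave 2, Cst3 and Cstb, beside 16.7%. In cells 7 of the 10 were tested. Between genotypes, 5 of 7 passed in 1% FCS, beside 48.5% of 15178 genes, and 3 of 7 in 1% FCS LT, beside 39.6%. Long-term culture moved 1 of 7 in Ctsd-/- cells, beside 2.38%, and 6 of 7 in Ctsd+/+ cells, beside 46.4%. The corrected comparison called 5 of 7, beside 30.3%. Calls were common among all genes in 4 of these 5 comparisons, and Bace1 and Serpina3g passed the filter through the groups in which they are high. The comparisons share groups, and the long-term change of Ctsd+/+ cells enters the corrected comparison. Over the tested members the median log2 FC was 0.21 in 1% FCS, 0.17 in 1% FCS LT and -0.22 in tumors, where the medians of all genes were between 0.00 and 0.01.

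**Figure D4:**
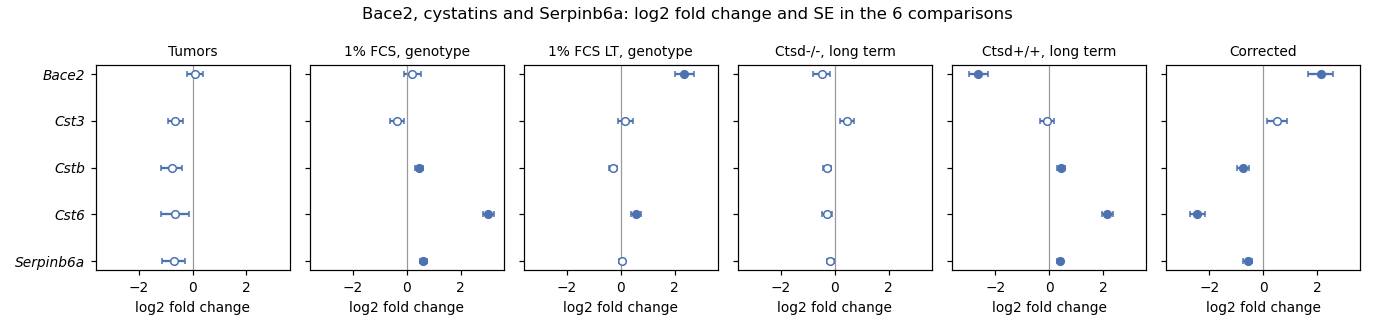
log2 FC (points) with its SE (bars) for Bace2, the 3 cystatins and Serpinb6a in the 6 comparisons. Filled points have an edgeR adjusted p under 0.05. Bace1 and Serpina3g are left out, as their folds rest on groups with few or no reads, and Ctse, Napsa and Serpina3n were not tested in cells. Cst6 is at 3.02 in the genotype comparison in 1% FCS and at -2.45 in the corrected one, and in tumors all 5 points are open.

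Counts of calls in the other lists are to be read against the shares of all genes called, which were 48.5% and 39.6% for genotype in 1% FCS and 1% FCS LT, 2.38% and 46.4% for long-term culture of Ctsd-/- and Ctsd+/+ cells, and 30.3% for the corrected comparison. They are given as descriptions. Of the 11 genes of cysteine cathepsins and legumain, the proteases that cystatins act on, 9 were tested in cells, and in 1% FCS 2 were higher and 5 lower in Ctsd-/- cells, beside 48.5% of all genes called. Ctsl, a cathepsin that cystatins inhibit, had 465 ± 121 CPM in Ctsd+/+ and 1613 ± 32.9 CPM in Ctsd-/- cells, a log2 FC of 1.79 ± 0.24 (edgeR, adjusted p = 7.70e-05), while Ctsz, a carboxypeptidase of the same family, had 180.1 ± 25.5 and 49.7 ± 8.35 CPM (log2 FC -1.86 ± 0.19, adjusted p = 1.42e-05). At the long-term time 2 were higher and 1 lower, with Ctsw at 4.91 ± 1.61 and 21.5 ± 3.64 CPM and Ctsc at 41.7 ± 3.77 and 10.0 ± 1.92 CPM in Ctsd+/+ and Ctsd-/- cells. Long-term culture changed 6 of the 9 in Ctsd+/+ cells (2 higher, 4 lower, beside 46.4% of all genes), among them Ctsz (log2 FC -2.96 ± 0.20) and Lgmn, which encodes legumain (log2 FC -1.53 ± 0.19), and 0 of 9 in Ctsd-/- cells, where 2.38% of all genes were called. The corrected comparison called 3 higher and 2 lower, with Ctsz at 3.37 ± 0.27 and Ctso at 1.38 ± 0.33.

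Among 13 serine proteases that serpins inhibit, 2 were tested in cells, the plasminogen activators Plau and Plat. In 1% FCS Plau stood at 160 ± 52.5 CPM in Ctsd+/+ and 1263 ± 171 CPM in Ctsd-/- cells (log2 FC 2.98 ± 0.33, edgeR adjusted p = 2.34e-05), and Plat at 64.8 ± 24.4 and 6.25 ± 1.15 CPM (log2 FC -3.37 ± 0.37, adjusted p = 2.14e-05). Plau alone was called in 1% FCS LT, higher in Ctsd-/- cells by a log2 FC of 1.79 ± 0.32. Long-term culture lowered Plat in Ctsd+/+ cells by a log2 FC of -2.75 ± 0.36, and the corrected comparison called Plat at 3.02 ± 0.50.

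Few relatives of the inhibitors had enough reads in cells. Of 35 other clade A3 and clade B serpins 10 were tested, and in 1% FCS 6 were higher and 2 lower in Ctsd-/- cells, beside 48.5% of all genes called. Serpinb11 had 0.571 ± 0.0973 CPM in Ctsd-/- cells and no read in Ctsd+/+ cells, and Serpinb9e had 0.473 ± 0.446 and 0.0174 ± 0.0302 CPM. Both passed the filter on low counts only through groups in which they are higher. Their calls are thus no support for the counts of this list. After 12 weeks 2 were higher and 1 lower, with Serpinb2, an inhibitor of urokinase, at 14.3 ± 6.63 CPM in Ctsd+/+ and 52.6 ± 12.0 CPM in Ctsd-/- cells. Long-term culture changed 5 upward and 3 downward in Ctsd+/+ cells, beside 46.4% of all genes, and 0 in Ctsd-/- cells, beside 2.38%, and the corrected comparison called 1 higher and 5 lower. Of 19 other cystatins, Csta1 and Fetub were tested. Csta1, a stefin like Cstb, was higher in Ctsd-/- cells in 1% FCS (log2 FC 1.59 ± 0.52) and lower in 1% FCS LT (log2 FC -1.44 ± 0.47), with a corrected comparison of -3.03 ± 0.71 (edgeR, adjusted p = 0.00706). Fetub, which encodes fetuin B, was lower in Ctsd-/- cells at both times, with 0.748 ± 0.123 against 3.01 ± 0.689 CPM in 1% FCS and 2.60 ± 1.60 against 13.5 ± 4.03 CPM in 1% FCS LT. Both rose in Ctsd+/+ cells during long-term culture, and neither was called in Ctsd-/- cells.

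Of 14 other aspartic proteases, 12 were found by symbol and 7 were tested in cells. Asprv1, a retroviral-like aspartic protease of skin, had 0.130 ± 0.0747 CPM in Ctsd+/+ and 1.37 ± 0.213 CPM in Ctsd-/- cells in 1% FCS (log2 FC 3.33 ± 0.40, edgeR adjusted p = 3.81e-05), and 1.92 ± 0.399 and 1.02 ± 0.237 CPM in 1% FCS LT (log2 FC -0.90 ± 0.32, adjusted p = 0.0425). Asprv1, too, passed the filter on low counts only through groups in which it is higher than in 1% FCS Ctsd+/+ cells. The intramembrane protease Sppl2b was the only other one called in 1% FCS, at -0.54 ± 0.11. At 12 weeks 2 were higher and 2 lower, among them Sppl2a, a relative of Sppl2b, at 0.62 ± 0.14. Long-term culture changed 1 upward and 2 downward in Ctsd+/+ cells, beside 46.4% of all genes, and 0 of 7 in Ctsd-/- cells, beside 2.38%, and the corrected comparison called Sppl2a higher and Asprv1 lower. In tumors none of these 5 lists held a called gene, beside 0.00537% of all 18617 genes tested.

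The cell cultures differed in markers of cell type. The summed level of 7 fibroblast markers was 1178 to 3310.0 CPM in Ctsd+/+ cells in 1% FCS, with Lum at or under 3 reads, and 3.05 to 99.8 CPM in the other 3 groups, where Lum and, in Ctsd-/- cells, also Col3a1 and Dcn were at or under 3 reads. The 7 mammary epithelial markers summed to 915 to 1724 CPM in Ctsd+/+ cells in 1% FCS and to 4302 to 10120.0 CPM in the other groups. Not all of them moved alike. In Ctsd-/- cells 6 were called higher and 1 lower in 1% FCS, beside 48.5% of all genes called. In 1% FCS LT 1 was higher and 2 were lower, beside 39.6%. Serpina3g was above 3 reads in the fibroblast-marker-rich group and in 1 other culture, and Cst6, Cstb and Serpinb6a had their lowest cell means there. The part of these markers in the levels was not tested. Bace1 was highest in 1% FCS LT Ctsd+/+ cells, where the fibroblast markers summed to 3.05 to 8.37 CPM and the epithelial ones to 4302 to 4778 CPM. The 7 T and NK cell markers were each at or under 3 reads in all cell groups, and the macrophage sum was 18.5 to 94.6 CPM with C1qa, C1qb and C1qc at or under 3 reads.

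In tumors, which hold stroma, the macrophage markers summed to 841 to 1929 CPM and the fibroblast markers to 860.1 to 3438 CPM, with overlap between genotypes. The adipocyte markers ranged from 519 to 5556 CPM in control and from 3300.0 to 22630.0 CPM in MMTV-cre;Ctsd-/- tumors, and their median log2 FC was 2.71, with 0 of 6 called. The endothelium markers ranged from 45.0 to 94.4 CPM in control and from 60.8 to 234 CPM in MMTV-cre;Ctsd-/- tumors. Their median log2 FC was 1.22, with 0 of 5 called. Both counts of calls stand beside 0.00537% of all 18617 genes tested, so they say little about these markers. The 6 neutrophil markers summed to 16.5, 18.4, 37.5 and 76.1 CPM in control tumors 1 to 4, the order of Cstb and Cst6 there. In MMTV-cre;Ctsd-/- tumors they summed to 22.9 to 25.6 CPM, and Ly6g was at or under 3 reads in both groups. The part of these marker lists in the tumor values was not tested.

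By the likeness of their log2 CPM over the 12 cell samples, which share 4 groups, the genes nearest to Bace1 were Ereg (Pearson r = 0.998), Lrch1 and Emb (both 0.996). For Cst6 they were Map3k9 (0.994), Sox13 (0.992) and Pard6b (0.991), and for Serpina3g Myl9 (0.994), Col5a3 (0.992) and Klf12 (0.99). Bace2 was most like Dab2ip (0.972), Fjx1 and Vps39 (both 0.966), and Serpinb6a most like Ehd1 (0.979), Carnmt1 (0.966) and Tmem258 (0.965). Lower values were reached for Cstb, with Rpl39-ps (0.922), Cox7b (0.915) and Prdx6 (0.91), and for Cst3, with Cnpy3 (0.882), Ephb6 (0.88) and Gdpd2 (0.879). These r describe 4 group levels more than 12 independent points.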

How the data were processed

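Per the labels and the study's methods, RNA-seq reads were trimmed with Trimmomatic and aligned with STAR to GRCm38 (mm10). Versions and the annotation release are not given in the sources used here. The authors deposited raw gene counts per sample in 3 forms, namely ignoring strand, with reads in the direction of the gene, and with reads against it. Here the form ignoring strand was used for the 8 tumors and that with reads against the gene, which in these libraries are its own transcripts, for the 12 cell samples. Genes were filtered with filterByExpr, scaled by TMM and tested with edgeR 4.0.16 (R 4.3.3, quasi-likelihood test, Benjamini-Hochberg adjustment over all genes tested, threshold 0.05). Tumors and cells were fitted apart, and the 4 cell groups shared 1 estimate of the spread. SE is the log2 FC divided by the square root of F. DESeq2 1.42.0, limma-voom 3.58.1, other size factors, count filters, count forms, left-out samples and a replicate block were alternatives. The scripts were tested on simulated data.

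Symbols and coordinates came from GENCODE M21, which held 45143 of the 45706 identifiers. Named genes were the members, Ctsd and, per list and comparison, up to 2 called genes whose groups did not overlap, by size of log2 FC. Members and lists were chosen with earlier results of these data known. edgeR put the biological coefficient of variation at 0.429 for tumors and 0.217 for cells. No replicates were the same library, with chi-square values per gene of 16.54 to 616.1. Intervals from counts, floors included, cover counting error only.

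Samples with the same replicate number deviated together in each pair for genotype in 1% FCS (correlations 0.406, 0.124 and 0.378) and for long-term culture of Ctsd-/- cells (0.167, 0.154 and 0.162). This pairing is read from the data, and the labels name none. In 1% FCS, however, replicate 1 of both genotypes had an LR number that replicates 2 and 3 did not have. For the other comparisons some correlations were under 0.1.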

Additional observations from a re-analysis of the deposited data

Results flagged for a closer look

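The genotype difference itself differed between 1% FCS LT and 1% FCS for 5 of the 7 genes tested in cells, by the corrected comparison in edgeR, which called 30.3% of all 15178 genes. It was 2.14 on the log2 scale for Bace2 (adjusted p = 0.00518), -2.45 for Cst6 (6.51e-05), -0.75 for Cstb (0.0248) and -0.57 for Serpinb6a (0.0197). The calls of Cstb and Serpinb6a were lost in some fits without a single culture, with edgeR adjusted p up to 0.0632 and 0.0576. Those of Bace2 and Cst6 were kept in all such fits. For Serpina3g the fitted value was 9.78 (adjusted p = 0.00574), a size that rests on groups with no read or few reads. Serpina3g was tested only through the group in which it is high, so its call is no support for the count, and it was lost without 1% FCS LT Ctsd-/- replicate 2 (adjusted p = 0.0591).

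Reads over the Bace1 exons that stand for transcripts of the other strand, which are not used for its level, amounted to 27.4 CPM in 1% FCS Ctsd-/- and 30.4 CPM in 1% FCS LT Ctsd-/- cells. The Ctsd+/+ cells had 21.2 and 13.4 CPM at the same times. No member had a tumor that stood apart from the others of its group by Dixon's test, and the cell groups of 3 were not tested.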

How the results depend on the processing

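Of the log2 FC recomputed under alternatives, 457 of 500 with a sample left out and 330 of 340 others kept their direction and side of the threshold, 29 and 7 lost it, 1 and 2 gained it, and 13 and 1 changed sign. With at least 10 counts in every sample, 3 members were called for genotype in 1% FCS, since Bace1 and Serpina3g were then not tested. The 1 call for long-term culture of Ctsd-/- cells became 0 with limma-voom, with DESeq2 size factors, with that filter, with the other count form, with the 8 samples of the shared LR number and with the replicate block (Bace1 log2 FC 1.50, adjusted p = 0.0504), which changed no other call. The cause was not tested, except that Bace1 is not tested under the filter. Leaving out single samples gave 0 calls in tumors, 4 to 7 for genotype in 1% FCS, 2 to 4 in 1% FCS LT, 0 to 1 and 5 to 7 for long-term culture of Ctsd-/- and Ctsd+/+ cells, and 3 to 5 for the corrected comparison. It turned signs among values that missed the threshold. In tumors Ctse ran from -0.68 to 0.12, Bace1 from -0.13 to 0.22, Bace2 from -0.13 to 0.26 and Serpina3g from -0.31 to 0.27. In cells Bace2 ran from -0.076 to 0.46 for genotype in 1% FCS, Cst3 from -0.029 to 0.36 and Serpinb6a from -0.014 to 0.086 in 1% FCS LT, Cst3 from -0.35 to 0.24 for long-term culture of Ctsd+/+ cells, and Bace1 from -0.31 to 0.14 for the corrected comparison. With the 8 samples of the shared LR number, Cst3 was at 0.26 for long-term culture of Ctsd+/+ cells. In data simulated on the tumors, edgeR recovered 7% of changes of 1 and 71% of changes of 2 on the log2 scale.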

Other observations

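Cstb, Cst6 and Serpinb6a had similar orders of level over the 8 tumors. They were picked from the 10 genes because their values ran alike, so the correlations of log2(CPM + 1) are a description, given with no test. Cstb and Cst6 had a Pearson r of 0.95 and a Spearman rho of 0.952, and r was 0.935 without the 2 tumors farthest from the median of Cstb. Cstb and Serpinb6a had an r of 0.911 and a rho of 0.786, with an r of 0.692 without the 2 farthest tumors. Cst6 and Serpinb6a had an r of 0.854 and a rho of 0.69, and r fell to 0.558 without the 2 farthest. With 4 tumors per genotype, which is also the split by LR number, no value within a genotype is given.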
